A study of Mus musculus with 2 samples.

Results

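The miR-34 family consists of small RNAs that the tumor suppressor p53 induces when DNA is damaged or an oncogene is active. Here it was followed in LSKs, the lineage-negative, Sca-1-positive and c-Kit-positive cells of the BM that include hematopoietic stem cells and early progenitors. The members were taken by name from the arrays: mmu-miR-34a-5p, mmu-miR-34b-5p, mmu-miR-34b-3p, mmu-miR-34c-5p and mmu-miR-34c-3p (written without mmu, for mouse, from here on), which are 5 of the 1881 mouse miRNAs measured. All mice were of the C57BL/6 strain and carried 2 transgenes, Scl/tTA and TRE-BA. In this tet-off pair the Scl regulatory element drives the transactivator in stem and progenitor cells, and the transactivator switches on BCR/ABL (BA), the fusion kinase of chronic myelogenous leukemia. Doxycycline in the drinking water (20 mg/L) kept BA off, and LSKs were sorted at week-0 (0W_LSK, the control) or at week-3 (3W_LSK) after its withdrawal. Neither the labels nor the methods used here give the age of the mice. LSKs of 3 mice were mixed for each group, and each mixture was hybridised to 1 array. The comparison is therefore of 2 arrays with no replicate of either condition, and no test between the conditions was possible. The SDs and SEs below are spreads over spots, and the SE of a log2 difference combines the spots of both arrays. Errors of signal totals are those given by the scanner software. None of these comes from repeated arrays or from single mice. All mice carried both transgenes, so the groups share these. They differ in the time off doxycycline and in what followed from it, and also in the mice mixed and the array used. With 1 array per group these cannot be told apart.

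p53 binds near the genes of this family and raises their transcription. The mature miRNAs then repress mRNAs of proteins that drive the cell cycle and block apoptosis, Bcl2, Ccnd1, Cdk6 and Met among the known ones. Recognition of an mRNA rests mainly on the seed, bases 2 to 8 of the miRNA. miR-34a is made in many tissues, while miR-34b and miR-34c come from 1 shared transcript that is best known from testis and from multiciliated cells of the airway and the oviduct.

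Mature sequences, in the annotation of RefSeq on GRCm38.p6, were found for 4 of the 5 members. They are shown because the seed, in capitals, divides the family into 5p arms that share a target code and 3p arms with another.

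miR-34a-5p: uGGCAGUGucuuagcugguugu
miR-34b-5p: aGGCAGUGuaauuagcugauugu
miR-34b-3p: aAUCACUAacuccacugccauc
miR-34c-3p: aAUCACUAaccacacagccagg

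miR-34a-5p and miR-34b-5p share 1 seed, and among the 1679 mature miRNAs of the table it occurs in 4, with miR-449a-5p and miR-449c-5p. No entry was found there for miR-34c-5p or miR-449b, so this count leaves them out and their seeds are not shown. miR-34b-3p and miR-34c-3p share the other seed, which occurs in 2 of the 1679.

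miR-449a-5p: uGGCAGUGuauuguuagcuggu
miR-449c-5p: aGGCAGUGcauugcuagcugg

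The members come from 2 chromosomes. Mir34a lies at chr4:150068454-150068555 (102 bases, plus strand), where the annotation places no other gene over it, and its 5p arm occupies bases 150068473 to 150068494. Mir34b (chr9:51103562-51103645) and Mir34c (chr9:51103034-51103110) lie 451 bases apart on the minus strand of chromosome 9, and both are within the annotated spans of Hoatz and Btg4. The miR-449 genes lie on chromosome 13 within Cdc20b, a gene of multiciliated cells.

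Each member was read by 2 probes of 15 spots each. A probe runs from the 3′ end of the miRNA toward its seed, and the longer probe of a pair carries 1 more base at its own 3′ end. The probe pair of miR-34a-5p and the longer probes of its closest relatives are shown because the result rests on these spots. The capital marks the base that the shorter probe of the pair lacks.

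miR-34a-5p shorter probe: acaaccagctaagacactg
miR-34a-5p longer probe: acaaccagctaagacactgC
miR-34b-5p longer probe: acaatcagctaattacactgcC
miR-34c-5p longer probe: gcaatcagctaactacactG

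The pair of miR-34a-5p covers bases 4 to 22 and 3 to 22 of the miRNA. In a global alignment the longer probe of miR-34a-5p (20 bases) had 18 positions in common with that of miR-34b-5p (22 bases), and 16 with those of miR-34c-5p and miR-449a-5p (20 bases each). Whether the probes of 1 relative bind another was not tested. The probes of miR-34b-3p (15 and 16 bases) and miR-34c-3p (13 and 14 bases) are shorter and end at base 7 or later of the miRNA, so they read little or none of the seed.

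Only miR-34a-5p was detected, on both arrays, and the other 4 members were undetected on both. The scanner software counts a miRNA as detected if the total signal of at least 1 of its probes exceeds 3 times the error of that total. By this flag the week-0 array had 178 detected miRNAs and the week-3 array 193 (9.46% and 10.3% of the 1881), of which 158 were shared and 213 were found on at least 1 array. All 3 hematopoietic markers and all 4 markers of stem and progenitor cells checked were detected on both arrays. Of the 2 erythroid markers checked, miR-451a was detected at week-0 alone and the other was undetected on both arrays. The 1 lymphoid marker checked, miR-150-5p, was undetected on both arrays, as were the 2 stromal, 3 epithelial, 1 liver, 1 muscle and 1 neuronal markers.

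The spots of miR-34a-5p stood above the negative controls at week-0 and approached them at week-3. The spot values are processed signals in intensity units, that is the brightness of a spot after the scanner software took off the background, with spots that it marked as outliers left out. On the longer probe the 15 spots ran from 23.1 through a median of 32.8 to 50.3 at week-0 (mean 33.3 ± 7.28, SD over 15 spots). At week-3 they ran from 7.70 through 11.96 to 18.0 (mean 12.5 ± 2.69, SD over 15 spots). The spots of the 2 arrays did not overlap, and the week-3 mean was 0.375 of that at week-0.

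On the shorter probe the spots were dimmer on both arrays. They ran from 7.42 through 14.8 to 23.5 at week-0 (mean 15.2 ± 4.10, SD over 15 spots). At week-3, 4 of the 15 spots were marked as outliers, with values between 0.419 and 17.4, and the 11 others ran from 2.19 through 5.22 to 7.66 (mean 5.24 ± 1.68, SD over 11 spots). The kept spots overlapped between the arrays in 1 narrow stretch between 7.42 and 7.66. No ratio is given for this probe, which was undetected at week-3.

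Each array held 1000 spots labelled as negative controls. After 40 and 23 outliers were left out, the week-0 controls averaged 4.83 ± 3.56 (SD over 960 spots) and the week-3 controls 4.50 ± 2.92 (SD over 977 spots), with 99th percentiles of 13.6 and 10.8. At week-0 every spot of the longer probe of miR-34a-5p was brighter than the brightest kept control spot (16.3), and all 15 carried the software's mark of well above background. At week-3, 5 of the 15 were brighter than the brightest kept control (13.02), 11 exceeded the 99th percentile, and 2 carried the mark. The shorter probe at week-3 was within the controls. Its mean of 5.24 was 0.738 above their mean, 58.6% of the control spots lay below it, and 0 of its 11 kept spots exceeded their 95th percentile of 9.10. That mean and the control mean both lay above the median of all miRNA spots on the week-3 array (-0.528). At week-0, 12 of the 15 spots of this probe had exceeded the 95th percentile of 11.2.

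**Figure D1:**
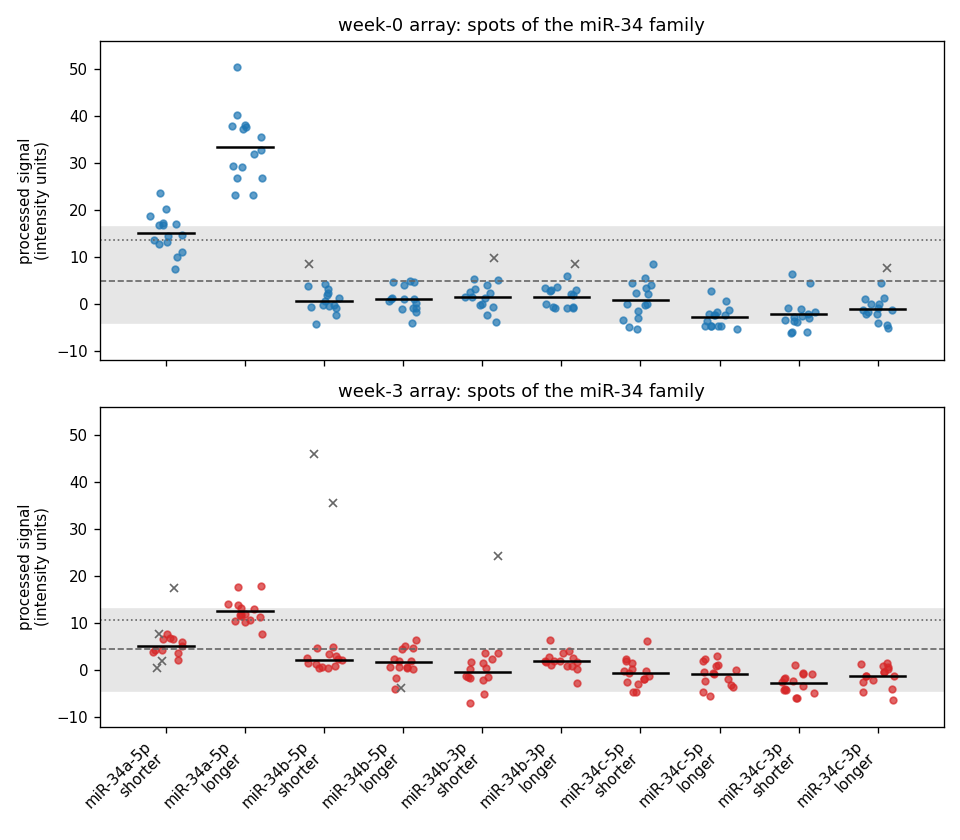
Processed signal (intensity units) of every spot of the 5 members by probe, at week-0 (upper panel) and week-3 (lower panel). Dots are kept spots, crosses are outlier spots, short lines are means of kept spots, the grey band spans the kept negative control spots, and the dashed and dotted lines mark their mean and 99th percentile. The longer probe of miR-34a-5p averaged 33.3 and 12.5, and the means of the other 4 members lay below the control mean on both arrays.

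The probes of miR-34b and miR-34c gave no signal above the controls. Their 16 probe means (8 probes on 2 arrays) ran from -2.78 to 2.23, all below the mean of the negative controls, and none of their kept spots reached the 95th percentile of the controls or carried the mark of well above background. For miR-34b-5p the probe means were 0.595 and 1.005 at week-0 and 2.23 and 1.73 at week-3 (shorter and longer probe). For miR-34b-3p they were 1.41 and 1.55, then -0.440 and 1.99. Those of miR-34c-5p were 0.822 and -2.71 at week-0, then -0.519 and -0.886 at week-3. Those of miR-34c-3p were -2.15 and -1.14, then -2.78 and -1.25. Over all miRNA spots the median was -0.547 on the week-0 array and -0.528 on the other, so these probes were as dim as the bulk of the array. Single bright spots did occur. The shorter probe of miR-34b-5p had spots of 35.6 and 46.1 at week-3 and that of miR-34b-3p a spot of 24.3, brighter than any spot of miR-34a-5p on that array, and all 3 were marked as outliers. With them the mean of the shorter miR-34b-5p probe was 7.38, against 2.23 without them. No fold is given for these 4 members, since they were undetected and below the mean of the negative controls on both arrays. In the sorted mixtures a lower signal can mean fewer cells that make a miRNA or less of it in each cell, and these cannot be told apart.

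The relatives outside the family were also undetected. The 3 miR-449 miRNAs, which act through the same seed as far as the table shows it, were undetected on both arrays, with probe means from -5.15 to 0.598. So was miR-34a-3p, the arm of the miR-34a hairpin that is usually degraded, with probe means from -1.49 to -0.228. Of these 9 miRNAs, miR-34a-5p was thus the sole one that the arrays detected in LSKs.

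How firmly miR-34a-5p was detected at week-3 depended on the rule. In the software's totals, which are the probe means rescaled, the shorter and the longer probe reached 3.22 and 5.95 times their error at week-0, so both were detected. At week-3 they reached 1.59 and 3.58 times, so detection rested on the longer probe alone. A probe mean above the 99th percentile of the negative controls kept miR-34a-5p on both arrays. A probe mean above the control mean plus 3 SD (15.5 at week-0 and 13.3 at week-3) kept it at week-0 alone, and so did a rule that most spots of a probe be well above background. Under all 4 rules the other members stayed undetected.

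miR-34a-5p was lower at week-3. Before any scaling its 2 probe means summed to 48.5 (SE over spots 2.16) at week-0 and 17.7 (SE over spots 0.86) at week-3. After quantile normalization over all 1881 miRNAs, which gives both arrays the same set of values, the sums were 47.1 and 18.9, a log2 difference of -1.32 (SE over spots 0.09) or 2.50-fold lower. The shorter probe, undetected at week-3, is part of these sums. The longer probe alone, scaled over all probes, gave -1.30. Without normalization the difference was -1.45. In the authors' normalized log2 table, miR-34a-5p had 4.30 at week-0 and 3.13 at week-3, a difference of -1.17, and was flagged present on both arrays. The other 4 members were flagged absent there on both arrays, with values from 2.44 to 2.59 at week-0 and from 2.43 to 2.64 at week-3, beside medians of 2.46 and 2.46 over all undetected miRNAs. miR-34a-5p at week-3 lay above the 95th percentile of those undetected miRNAs (2.77).

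The study counted a miRNA as lower at a ratio of at most 0.67. miR-34a-5p had a ratio of 0.40 and passed, but many miRNAs did: 61 of the 213 detected on at least 1 array (28.6%) and 42 of the 158 detected on both (26.6%). Of the 158, 6 had a difference below that of miR-34a-5p and 151 had one above it, over a range of -2.13 to 2.42 and a median of -0.04. The 5 with the most similar difference were miR-181a-5p (-1.30), miR-26b-5p (-1.29), miR-10a-5p (-1.47), miR-26a-5p (-1.15) and miR-322-5p (-1.13). They were chosen by the size of 1 difference between 2 arrays. miR-34a-5p was measured less precisely than most, with 21 of the 158 having a larger SE over spots and a median SE of 0.04.

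A list of 14 miRNAs linked to p53, the family included, was picked from textbook knowledge with earlier results of these data known. Its counts depend on that choice. Of the 14, 13 were on the arrays and 2 passed the detection flag: miR-34a-5p itself and miR-107-3p. Both passed the ratio of 0.67, beside the 28.6% of all miRNAs detected. The median over the 2 was -0.96, against -0.04 over the miRNAs detected on both arrays. Since miR-34a-5p is 1 of the 2, this median adds only miR-107-3p and does not describe p53-linked miRNAs as a group. miR-107-3p, which p53 induces through its host gene Pank1, had 15 spots between 207 and 239 on its longer probe at week-0 and 14 kept spots between 94.5 and 136 at week-3. These spots did not overlap, and on both arrays all of them lay far above the controls. Its log2 difference was -0.60 (SE over spots 0.03), a ratio of 0.661 that lay just inside the threshold, and -0.95 without normalization. The others on the array were undetected on both arrays: miR-192-5p, miR-194-5p and miR-215-5p, a p53-linked group of colon and kidney, miR-143-3p and miR-145a-5p of smooth muscle and fibroblasts, and miR-200c-3p and miR-141-3p of epithelium.

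The direction of miR-34a-5p turned if the software's total signal per miRNA was read in place of its probes. This column gave 10.3 at week-0 and 86.4 at week-3, a ratio of 8.39, and a log2 difference of 3.33 after quantile normalization. In it miR-34a-5p was past 1.5-fold higher, together with 33.3% of the miRNAs detected on at least 1 array. The totals of its 2 probes, in the same unit, went the other way. The shorter probe had 3.22 (error 1.0) at week-0 and 1.11 (error 0.70) at week-3, and the longer probe had 7.07 (error 1.19) and 2.65 (error 0.741).

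At week-0 the total per miRNA was the sum of the 2 probe totals. At week-3 the shorter probe was undetected, and the software's setting leaves undetected probes out, so the longer probe's 2.65 was all that miR-34a-5p had of its own, 3.07% of the 86.4. The remaining 83.7 (96.9%) was equal to the total per miRNA of miR-3473g on that array, the detected miRNA that comes just before miR-34a-5p in the order of names. miR-3473g itself had both probes detected on both arrays, with a total of 56.8 on the week-0 array and 83.7 on the other. Its probe means were 133 and 135 at week-0 and 194 and 201 at week-3. The 83.7 units that set the direction of miR-34a-5p in this column were thus numerically those of another miRNA.

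**Figure D2:**
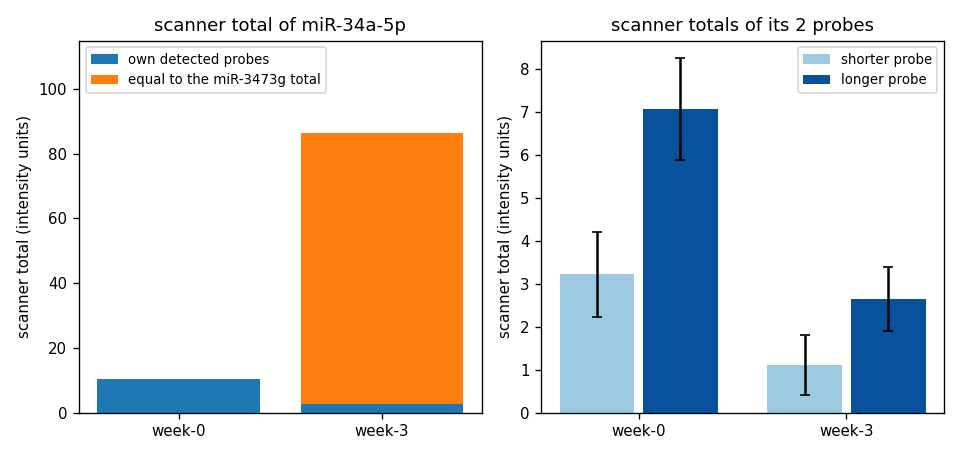
Left, the scanner total per miRNA of miR-34a-5p (intensity units) on the week-0 and week-3 arrays, divided into the totals of its own detected probes and the part equal to the total of miR-3473g. Right, the totals of its shorter and longer probe, with the software's error of each total as bars. The total was 10.3 and then 86.4, of which 83.7 equals the total of miR-3473g, while both probe totals were lower at week-3.

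The same held for every detected miRNA on both arrays. Probes were ordered by their name within a miRNA and miRNAs by theirs. Where the first probe of a detected miRNA was itself detected, which was so for 126 values of the week-0 array and 140 of the other, the total per miRNA equalled the sum of its own detected probes in all of them. Where the first probe was undetected, the total exceeded that sum by the total of the detected miRNA before it, in 52 of 52 values of the first array and 53 of 53 of the second. Equality was taken within 0.01% of the total, and all 371 values were covered with 0 exceptions. A total with an undetected probe elsewhere than first was unaffected (15 of the 120 values with any undetected probe). How the software fills this column is not stated in the labels, the headers or the methods.

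**Figure D3:**
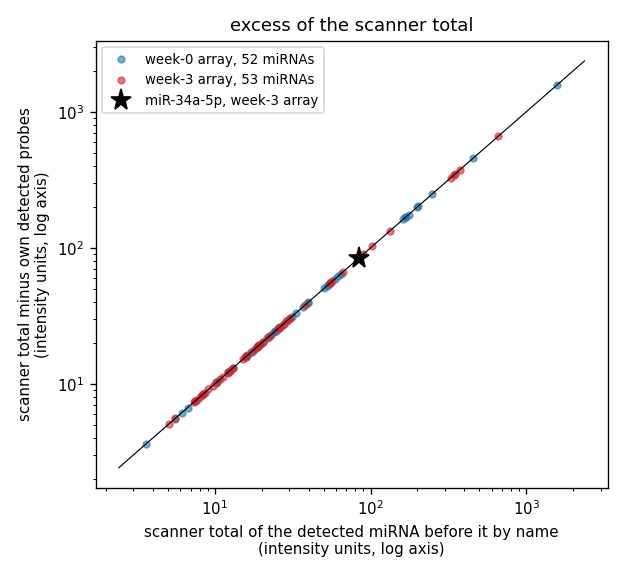
Excess of the scanner total per miRNA over the miRNA's own detected probes, against the total of the detected miRNA before it by name (both in intensity units on log axes), for miRNAs (52 on the week-0 array, 53 on the week-3 array) whose first probe was undetected. The line marks equality, the star is miR-34a-5p at week-3, and all 105 points lie on the line.

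miR-34a-5p also passed its total on. The detected miRNAs after it by name, miR-350-3p and miR-3535, had an undetected first probe on both arrays. Own detected probes gave miR-350-3p 5.65 at week-0 and 3.20 at week-3, a log2 ratio of -0.82, while the column gave 15.9 and 89.6, a log2 ratio of 2.49. For miR-3535 own probes gave 2.64 and 2.61, a log2 ratio of -0.02, and the column gave 18.6 and 92.2, a log2 ratio of 2.31. The week-3 values of both contain the 86.4 of miR-34a-5p and with it the 83.7 of miR-3473g. The run ended after these 2 miRNAs at week-3 and after 5 at week-0.

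Among the 158 miRNAs detected on both arrays, 23 had opposite directions by the column and by the totals of all their probes, detected or not, both unscaled. Of 8 with a carried-over total at week-3 alone, as for miR-34a-5p, all 8 were lower by their probes and 6 of them were higher in the column. These 8 are miRNAs whose first probe was detected at week-0 and not at week-3, so a lower probe signal is largely fixed by how they were chosen. Of 13 with one at week-0 alone, 8 turned from higher to lower. With one on both arrays 8 of 25 turned, and with one on neither 1 of 112. The ratio of the column to own detected probes was 32.6 for miR-34a-5p at week-3, the 6th highest of the 158. The 5 above it were miR-5107-5p (112 at week-0), miR-17-5p (43.1 at week-0), miR-125b-5p (39.8 at week-3), miR-5099 (37.7 at week-3) and miR-3535 (35.4 at week-3).

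Taking the carried-over total off did not bring the column fully to the probe means. Own detected probes gave miR-34a-5p 10.3 and 2.65, an unscaled log2 ratio of -1.96, since the shorter probe counted at week-0 and was left out at week-3. With the totals of both probes on both arrays the log2 ratio was -1.45.

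The size of the difference, unlike its direction, also depended on what was taken as background. With the median of the negative controls taken off, it was -1.99. With only the local background around each spot taken off, it was -0.49 and short of the threshold. By that measure the negative controls still read 31.8 at week-0 and 28.7 at week-3, and the probes of miR-34a-5p read 42.1 and 60.4, then 28.7 and 36.4. An RMA-like summary, which adds an offset of 50 before taking logs, gave -0.23.

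**Figure D4:**
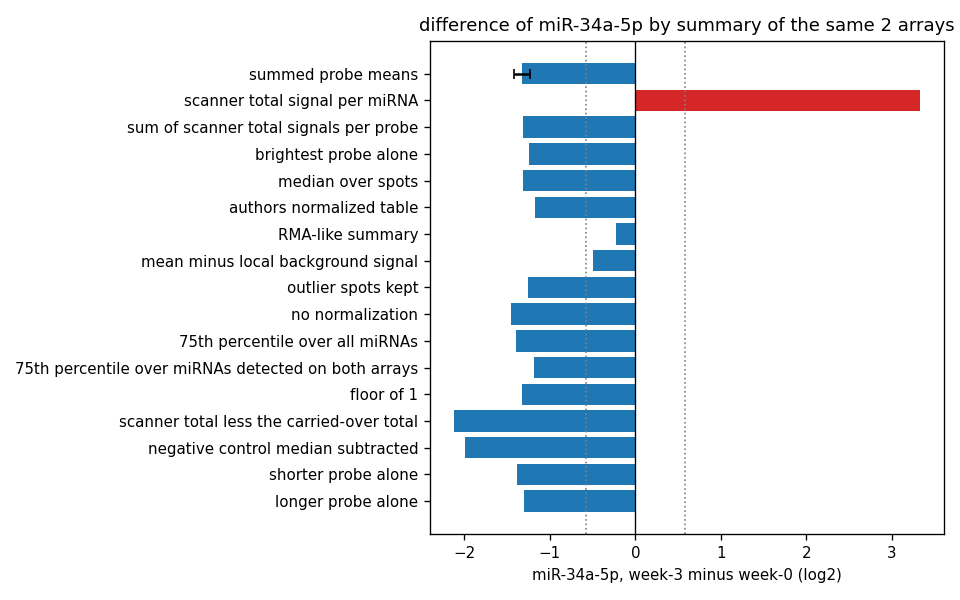
Log2 difference of miR-34a-5p, week-3 minus week-0, by summary of the same 2 arrays. The top bar is the summed probe means with its SE over spots, the dotted lines mark ratios of 0.67 and 1.5, and of the 16 other settings 15 lie below 0 and the scanner total signal per miRNA lies at 3.33. The shorter probe was undetected at week-3, so its bar has no measured week-3 level behind it.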

How the data were processed

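miRNAs in total RNA of sorted LSKs were labelled with Cy3 and hybridised to Agilent mouse miRNA arrays, 1 per group, both on 1 slide. The authors scanned them with Feature Extraction 10.7.1.1, and the deposited intensity values per spot (58594 spots, 56430 of them for miRNAs) are not normalized between arrays. The deposited log2 table was quantile normalized by the authors with AgiMicroRna, and the values deposited with the series are the same. Its summary of spots is not given in the sources used here.

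Processed signals were averaged over the spots of a probe without outliers, summed over the probes of a miRNA, quantile normalized, floored at 0.5 and put on the log2 scale. No saturated spot was found (0 on both arrays). SEs come from the spread over spots by the delta method and cover neither arrays nor mice. Simulated data were used to test the averaging and summing of spots, the log2 step and the search for carried-over totals. Changes were simulated only in the brighter miRNAs. Quantile normalization, the removal of outliers and the SEs were not tested in this way. Differences were counted at ratios of at least 1.5 or at most 0.67 and at 2-fold. Named were the 5 members, the p53-linked list, same-seed miRNAs, miR-34a-3p, the 5 nearest differences and the 5 highest ratios of the total to own probes. Members, lists and the use of probe means in place of the scanner total were chosen with earlier results of these data known. Alternatives changed the summary, background, outliers, normalization, floor and detection rule. Python 3.11.15, numpy 2.4.6, pandas 2.3.3, Biopython 1.88, R 4.3.3 and limma 3.58.1 were used.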

Additional observations from a re-analysis of the deposited data

How the results depend on the processing

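miR-34a-5p was lower at week-3 under 15 of the 16 alternatives, from -2.12 to -0.23 on the log2 scale, and past the ratio of 0.67 under 13. The 16 include the shorter probe alone, which was undetected at week-3. They also include a floor of 1, which could not move the value (-1.32) because miR-34a-5p lay above it on both arrays. The sum of the probe totals (-1.31) uses the probe means rescaled, so little change was possible there. The brightest probe alone (-1.25) and the longer probe alone (-1.30) are the same probe of miR-34a-5p. The 16 are thus not independent of each other. The sign turned with the scanner total signal per miRNA (3.33). The value moved beyond its spread over spots with the RMA-like summary (-0.23), with the mean minus local background signal (-0.49), and with 2 settings chosen after seeing the data, the total less its carried-over part (-2.12) and the negative control median subtracted (-1.99). The count of detected members was 1 under each rule, taken over both arrays. At week-3 alone it was 0 if most spots of a probe had to be well above background. It was also 0 there with the control mean plus 3 SD. Of the p53-linked miRNAs 2 were lower, but 1 with the scanner total and at 2-fold, and 0 with the RMA-like summary and the local background. All miRNAs past the thresholds numbered 55 higher and 61 lower, against 11 and 10 with the RMA-like summary, 18 and 23 with the local background, and 32 and 33 at 2-fold. The cause of these shifts was not tested. No paired analysis was possible because each group is 1 array. No array could be left out for the same reason. Signals near those of the negative controls limit the family to 1 measurable member.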
